A study of Homo sapiens with 5 samples.

Results

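The miR-17-92 cluster is a set of 6 miRNA hairpins cut from a single primary transcript, MIR17HG, and 10 of its mature arms were examined in MCF10A cells, a line of immortalized mammary epithelial cells that do not form tumors. The arms were chosen by name, as mature products of this transcript, from the 2565 human miRNA names counted in each library, and all 10 were found and passed the filter on low counts. Per the labels, detached cells (2 libraries, time label 24 h) had been plated on dishes coated with 2% poly-HEMA, a polymer that cells cannot adhere to, and attached cells (3 libraries, time label 0 h) on uncoated dishes. The series' design text instead gives 24 h of culture for both groups, so the age of the attached cultures is unresolved. All cells shared a DMEM/F12 medium with horse serum, epidermal growth factor, insulin, cholera toxin, hydrocortisone, penicillin and streptomycin. Nothing in the labels shows that replicates come from different cultures, and a p-value here reflects the scatter of these libraries alone, part or all of which may be technical.

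In the biogenesis of such a cluster, the nuclear enzyme Drosha cuts each hairpin out of the primary transcript and Dicer releases 2 arms, 5p and 3p, of which usually 1, the guide, is kept by Argonaute and the other, the passenger, is scarce. A guide recognises mRNAs mainly through its seed, bases 2 to 8. MYC and E2F transcription factors activate MIR17HG, and the cluster, known as oncomiR-1, is amplified or raised in many lymphomas and carcinomas. Targets attributed to it include the cell cycle inhibitor CDKN1A and BIM (BCL2L11), a pro-apoptotic protein that takes part in the death of epithelial cells that lose contact with matrix. No mRNA or protein was analysed here.

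The hairpins lie on chromosome 13, plus strand, within 787 bp (GRCh38; sequences and positions from RefSeq on GRCh38.p14): MIR17 from 91350605 to 91350688, MIR18A from 91350751 to 91350821, MIR19A from 91350891 to 91350972, MIR20A from 91351065 to 91351135, MIR19B1 from 91351192 to 91351278 and MIR92A1 from 91351314 to 91351391. Gaps between neighbouring hairpins ran from 35 to 92 bp. In GENCODE 29 the host gene MIR17HG spans 91347820 to 91354579, and each hairpin lies in an exon of 2 of its 3 transcripts and in an intron of the third. The mature arms are shown because their shared seeds define the families described below; the prefix hsa- marks them as human and is left out afterwards. Capitals mark the seed.
hsa-miR-17-5p: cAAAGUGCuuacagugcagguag
hsa-miR-20a-5p: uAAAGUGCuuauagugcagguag
hsa-miR-18a-5p: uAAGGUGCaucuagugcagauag
hsa-miR-19a-3p: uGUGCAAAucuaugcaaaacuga
hsa-miR-19b-3p: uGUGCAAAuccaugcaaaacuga
hsa-miR-92a-3p: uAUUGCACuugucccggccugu
hsa-miR-17-3p: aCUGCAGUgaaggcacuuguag
hsa-miR-18a-3p: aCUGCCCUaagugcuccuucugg
hsa-miR-19b-1-5p: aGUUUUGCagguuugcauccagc
hsa-miR-92a-1-5p: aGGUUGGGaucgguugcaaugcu
The first 6 are the arms usually described as guides and fall into 4 seed families, with miR-17-5p and miR-20a-5p in one and miR-19a-3p and miR-19b-3p in another. The last 4 are the partner arms, and their 4 seeds all differ. Of the 10 sequences, 2 are also encoded elsewhere: miR-19b-3p by MIR19B2 and miR-92a-3p by MIR92A2, both on chromosome X.

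Total counts on human miRNAs were 8805009 to 15793173 per library. Levels are given as counts per 1000000 human miRNA counts (CPM), without further scaling, and 3 counts, taken as the detection floor, equal 0.190 to 0.341 CPM. The arms are 22 or 23 nt long, so length hardly enters a comparison of their levels. No molecular identifiers are described, and how far ligation and amplification favour some arms was not measured. Attached replicate 2 stood apart from the other libraries: over 697 miRNAs it correlated with them at a Spearman's rho of 0.812 to 0.857, where the remaining 4 correlated with each other at 0.927 to 0.961, and it was the shallowest. The summed level of 5 epithelial marker miRNAs (miR-205-5p, miR-200b-3p, miR-200c-3p, miR-141-3p and miR-203a-3p) ran from 84412 to 117508 CPM in detached and from 40907 to 92847 CPM in attached libraries, lowest in attached replicate 2. Summed markers of blood cells (5), muscle (3), fibroblasts (4), liver (1) and neurons (1) stayed at or below 57.4 CPM in detached and 16.1 CPM in attached libraries, with miR-133a-3p at 0 throughout. The fibroblast sum was 17.5 to 57.4 CPM in detached against 3.78 to 11.7 CPM in attached libraries, and its part in the results below was not tested.

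With all 5 libraries, 0 of the 10 arms were called by edgeR's quasi-likelihood test (Benjamini-Hochberg adjusted p under 0.05), where the background was also 0% of 697 miRNAs in either direction. At unadjusted p under 0.05, 1 arm passed, miR-17-5p, toward higher levels, against 4.73% of all tested miRNAs higher and 2.3% lower. DESeq2 on the same rows called 0 arms as well, against 1.58% of miRNAs higher and 0.143% lower, and at unadjusted p it passed the same 1 arm, against 5.45% higher and 5.6% lower. Of the 10 arms 7 had positive and 3 negative log2 fold changes (detached over attached), with a median of 0.30. Over all 697 there were 340 positive and 357 negative, with a median of -0.04. Without attached replicate 2 the arms were 5 positive and 5 negative, with a median of 0.02. Of the 697 miRNAs, 675 were also tested in that fit, 315 positive and 360 negative, with a median of -0.06. The sections below give each arm in turn, since arms of the same transcript differed widely in level and in how they varied between libraries.

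**Figure D1:**
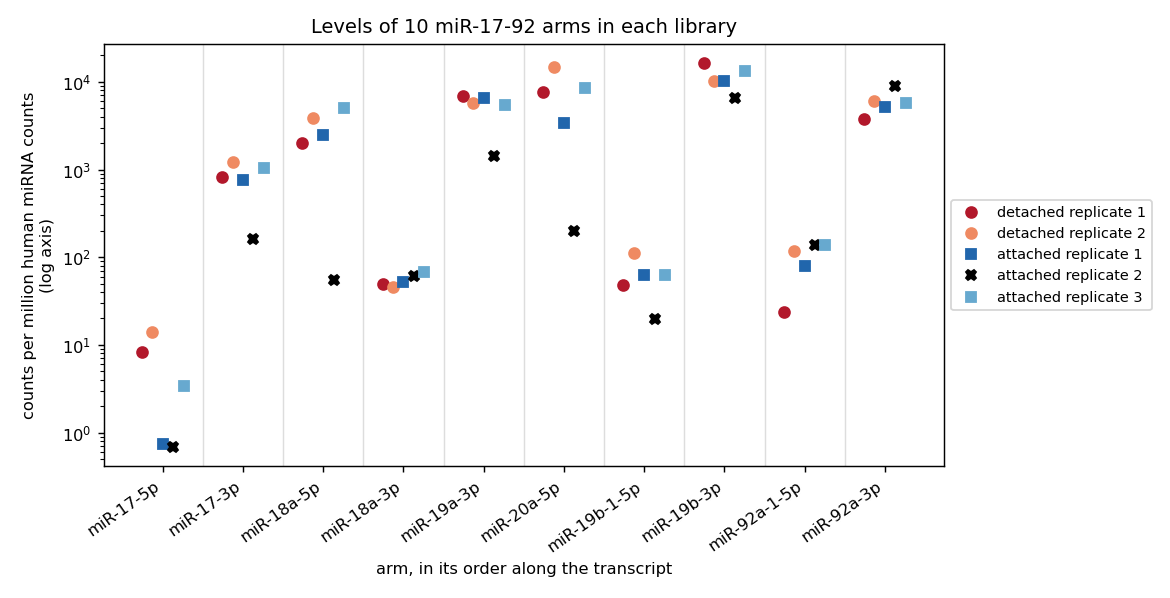
Level of each of the 10 arms in each of the 5 libraries, in CPM on a log axis, with the arms in their order along the transcript. Attached replicate 2 (black crosses) lies far below the other libraries for miR-18a-5p (55.4 CPM) and miR-20a-5p (199 CPM) and above them for miR-92a-3p (8856 CPM).

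miR-20a-5p was the most abundant cluster arm with the miR-17 seed, a family that represses CDKN1A and dampens E2F1. miR-20a-5p measured 7579 and 14772 CPM in detached replicates 1 and 2, against 3429, 199 and 8589 CPM in attached replicates 1, 2 and 3. The groups overlapped, since attached replicate 3 exceeded detached replicate 1. The log2 fold change was 1.35 (SE 1.04, edgeR adjusted p 0.773), and 0.79 (SE 0.50, edgeR adjusted p 0.582) without attached replicate 2. Without attached replicate 3 it was 2.32 (SE 1.17, edgeR adjusted p 0.568). In these bulk samples, a lower share of cells holding a miRNA and a lower level per cell cannot be told apart.

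miR-17-5p, the arm that gives the cluster its name, was the scarcest of the 10. miR-17-5p had 132 and 147 counts in detached replicates 1 and 2, against 9, 6 and 35 counts in attached replicates 1, 2 and 3. As levels these were 8.36 and 14.0 CPM in detached cells, against 0.741, 0.681 and 3.39 CPM in attached cells. The detached libraries were all above the attached ones, a pattern met by 18.1% of the 697 tested miRNAs. Its log2 fold change was 2.63 (SE 0.75, edgeR adjusted p 0.381) with all 5 libraries. In the fit without attached replicate 2, miR-17-5p rose by 2.37 on the log2 scale (SE 0.62) with an edgeR adjusted p of 0.0486, just inside the threshold, where 3.24% of 679 miRNAs were called higher and 0.147% lower. DESeq2 without that library called it too (2.42, SE 0.70, adjusted p 0.0178), with 3.83% of miRNAs higher and 0.442% lower. No other arm passed even an unadjusted p under 0.05 in these fits, where 9.57% of miRNAs were higher and 3.53% lower by edgeR, and 8.39% higher and 2.5% lower by DESeq2. Attached replicate 2 was left out because it deviated most in these same data, so adjusted p from fits without it may be too small.

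How reads were split between near-identical names limits what these levels mean. Positions below count from 1 at the 5′ end. miR-17-5p differs from miR-20a-5p at C1U and C12U, yet miR-20a-5p had 907 and 1059 times its counts in detached libraries 1 and 2, against 4631, 292 and 2533 times in attached libraries 1, 2 and 3. miR-106a-5p, of the paralog cluster on chromosome X, differs from miR-17-5p only at C1A and is shown with miR-20b-5p and miR-18b-5p, the other closest relatives at that locus.
miR-106a-5p: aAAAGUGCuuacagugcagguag
miR-20b-5p: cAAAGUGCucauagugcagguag
miR-18b-5p: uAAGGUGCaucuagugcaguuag
miR-106a-5p had 2 counts in all, both in detached replicate 2. Counts of other pairs that differ by a single base stood in different proportions: miR-18a-5p and miR-18b-5p differ only at A20U and held 154366 and 121 counts over the 5 libraries, and miR-19a-3p and miR-19b-3p differ only at U11C and held 316609 and 685143 counts. How the authors' counting treated reads that match more than 1 name is not given in the sources used here, so the level of miR-17-5p is uncertain, and the part of read splitting in it was not tested.

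The arms of the MIR17 hairpin are not near-identical to each other and also differed widely in level, for a reason that was not tested. miR-17-3p, usually the passenger, measured 830 and 1203 CPM in detached replicates 1 and 2, against 751, 162 and 1049 CPM in attached replicates 1, 2 and 3. miR-17-5p thus made up 0.997% and 1.15% of the hairpin's arms in detached libraries, against 0.0985%, 0.418% and 0.322% in attached libraries. On all shares given here the 95% Wilson intervals, which cover counting error only, were at most 6.08 percentage points wide, and at most 0.618 outside attached replicate 2. For miR-17-3p itself the log2 fold change was 0.48 (SE 0.71, edgeR adjusted p 0.884), with overlapping groups. It was 0.065 without attached replicate 2 and 0.81 without attached replicate 3.

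miR-18a-5p, described as a repressor of the estrogen receptor ESR1 in breast cancer cells, measured 1994 and 3833 CPM in detached replicates 1 and 2. In attached replicates 1, 2 and 3 miR-18a-5p measured 2464, 55.4 and 5043 CPM. The groups overlapped fully, with both detached values between the attached extremes. Its log2 fold change was 0.10 (SE 1.20, edgeR adjusted p 0.991), and it turned to -0.48 (SE 0.48, edgeR adjusted p 0.766) without attached replicate 2. That library held 0.0148 times the mean of attached replicates 1 and 3, the lowest such ratio among the 10 arms. The partner arm miR-18a-3p did not share the drop, with 61.7 CPM there.

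miR-18a-3p measured 49.8 and 45.9 CPM in detached replicates 1 and 2, against 52.2, 61.7 and 66.9 CPM in attached replicates 1, 2 and 3. Both detached values lay below all attached ones, as for 8.75% of tested miRNAs. The log2 fold change was -0.59 (SE 0.63, edgeR adjusted p 0.840), smaller than its standard error. miR-18a-5p made up 97.6% and 98.8% of the MIR18A arms in detached libraries, against 97.9%, 47.3% and 98.7% in attached libraries 1, 2 and 3.

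The miR-19 arms, the part of the cluster best known for driving lymphoma in mice, were together the most abundant seed family of the cluster in 4 of the 5 libraries, all but attached replicate 2. miR-19b-3p measured 16313 and 10327 CPM in detached replicates 1 and 2, against 10132, 6595 and 13323 CPM in attached replicates 1, 2 and 3. miR-19a-3p measured 6836 and 5779 CPM in detached replicates 1 and 2, against 6533, 1424 and 5409 CPM in attached replicates 1, 2 and 3. For both arms attached replicate 2 was the lowest library and the groups overlapped. The log2 fold change was 0.25 for miR-19b-3p (SE 0.54, edgeR adjusted p 0.909) and 0.35 for miR-19a-3p (SE 0.65, edgeR adjusted p 0.905). Without attached replicate 2, edgeR gave 0.14 for miR-19b-3p (SE 0.48, adjusted p 0.952) and -0.018 for miR-19a-3p (SE 0.47, adjusted p 0.992).

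Since miR-19b-3p and miR-92a-3p have a second locus on chromosome X, only their partner arms differ between the 2 loci. miR-19b-1-5p, from the chromosome 13 hairpin, measured 47.9 and 112 CPM in detached replicates 1 and 2, against 62.1, 19.9 and 62.3 CPM in attached replicates 1, 2 and 3. miR-92a-1-5p, also from chromosome 13, measured 23.7 and 118 CPM in detached replicates 1 and 2, against 80.1, 138 and 136 CPM in attached replicates 1, 2 and 3. The corresponding arms of the chromosome X hairpins, miR-19b-2-5p and miR-92a-2-5p, had 0 counts in every library, which allows at most 0.190 and 0.285 CPM in detached and 0.247, 0.341 and 0.291 CPM in attached libraries. These limits hold for the scarce partner arms, and how much of miR-19b-3p and miR-92a-3p came from chromosome X was not measured. The log2 fold change was 0.49 for miR-19b-1-5p (SE 0.69, edgeR adjusted p 0.884) and -1.14 for miR-92a-1-5p (SE 0.80, edgeR adjusted p 0.770). Without detached replicate 1 the values were 0.92 for miR-19b-1-5p and -0.40 for miR-92a-1-5p, and without detached replicate 2 they were 0.017 and -2.36. Without attached replicate 1 or 2 miR-19b-1-5p stood at 0.75 or 0.19.

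miR-92a-3p, described as a regulator of integrin subunits in endothelial cells, measured 3764 and 6089 CPM in detached replicates 1 and 2, against 5187, 8856 and 5722 CPM in attached replicates 1, 2 and 3. Attached replicate 2 was the highest library for miR-92a-3p and for miR-92a-1-5p, its partner from the same hairpin. For miR-92a-1-5p the lead over attached replicate 3 was narrow, at 138 against 136 CPM. Attached replicate 2 was highest for no other arm of the 10. For the other 8 arms that library was the lowest in 7 and neither extreme in 1, miR-18a-3p. Across all 697 tested miRNAs attached replicate 2 was the lowest of the 5 libraries in 51.1% and the highest in 22.2%. The log2 fold change of miR-92a-3p was -0.78 (SE 0.61, edgeR adjusted p 0.773), and -0.28 (SE 0.45, edgeR adjusted p 0.899) without attached replicate 2.

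**Figure D2:**
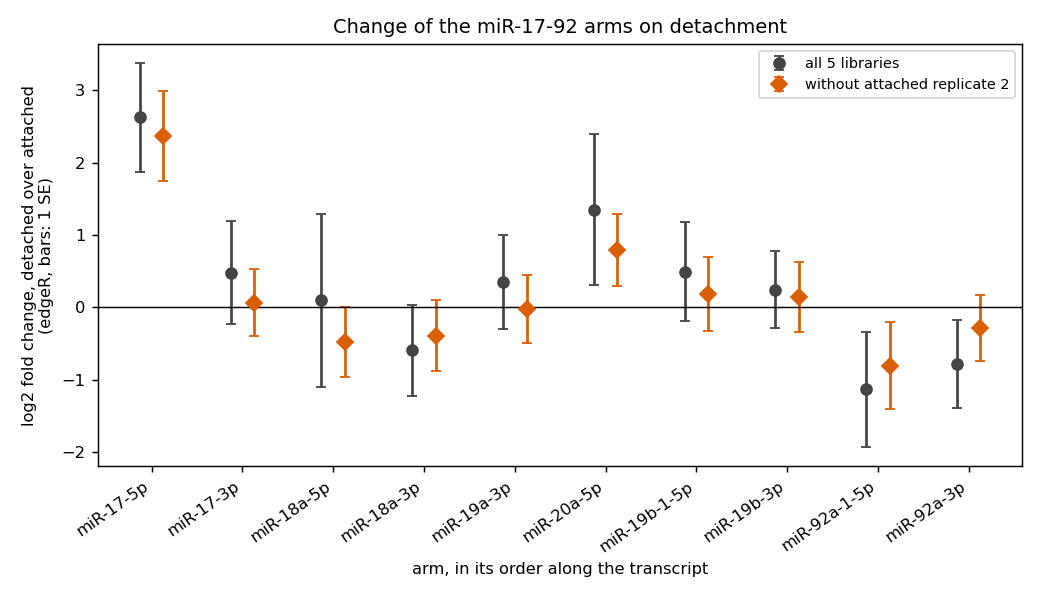
Log2 fold change, detached over attached, of each arm by edgeR, with bars of 1 standard error, for all 5 libraries (grey circles) and without attached replicate 2 (orange diamonds). miR-17-5p has the highest value in both fits (2.63 and 2.37), and the bars of miR-18a-5p are widest with all 5 libraries (SE 1.20).

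The authors' deposited table, a comparison of the same libraries, gave for miR-17-5p a log2 fold change of 2.18 (SE 0.83) and an adjusted p of 0.553. In the authors' deposited table the other 9 arms had an adjusted p of 0.998 each, with log2 fold changes from -1.08 for miR-92a-1-5p to 0.98 for miR-20a-5p. miR-18a-5p stood at -0.06 in the authors' deposited table, the opposite sign to the edgeR value of 0.10.

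The summed level of the 10 arms was 37445 and 42294 CPM in detached replicates 1 and 2, against 28692, 17512 and 39405 CPM in attached replicates 1, 2 and 3. The cluster therefore held 3.74% and 4.23% of human miRNA counts in detached libraries, against 2.87%, 1.75% and 3.94% in attached libraries. The mean was 39870 ± 3429 CPM in detached cells (SD, n = 2) and 28536 ± 10947 CPM in attached cells (SD, n = 3), a difference of 0.56 in mean log2 CPM. An exact two-sided permutation test over the 10 arrangements of the libraries gave p = 0.3, where the smallest p this design allows is 0.1. Attached replicate 3 lay above detached replicate 1, so the groups overlapped, and without attached replicate 2 the difference was 0.24. With the TMM factors used for the fold changes, the difference over all 5 libraries was 0.30. The arm with the most counts was miR-19b-3p in detached replicate 1 and in attached replicates 1 and 3, miR-20a-5p in detached replicate 2 and miR-92a-3p in attached replicate 2. That leading arm ranked 11 and 13 among human miRNAs in detached libraries 1 and 2, against 17, 16 and 13 in attached libraries 1, 2 and 3.

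**Figure D3:**
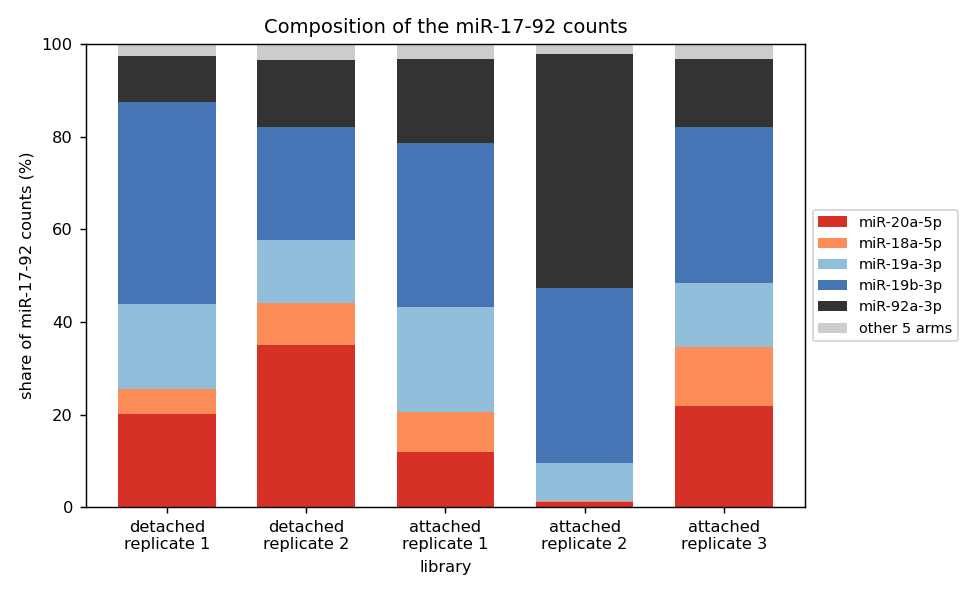
Share of the cluster's counts held by each abundant arm in each library, in percent, with the other 5 arms in grey. miR-92a-3p holds 50.6% in attached replicate 2 and 10.1% to 18.1% in the other 4 libraries, while miR-20a-5p holds 1.14% there and 12.0% to 34.9% elsewhere.

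The make-up of the cluster, which does not depend on scaling between libraries, also varied between libraries. miR-20a-5p held 20.2% and 34.9% of the cluster's counts in detached replicates 1 and 2, against 12.0%, 1.14% and 21.8% in attached replicates 1, 2 and 3. Detached replicate 1 and attached replicate 3 were close, so the groups overlapped. miR-92a-3p held 10.1% and 14.4% in detached libraries, against 18.1%, 50.6% and 14.5% in attached libraries 1, 2 and 3. Both detached values lay below the attached ones, the nearest pair being 14.4% and 14.5%. miR-20a-5p had 3.80 and 3.85 times the counts of miR-18a-5p in detached libraries, against 1.39, 3.59 and 1.70 times in attached libraries 1, 2 and 3. These shares were picked after their values were seen and carry no test.

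In MIR19A and MIR20A the guide arm dominated in every library. Counts of miR-19b-3p and miR-92a-3p also far exceeded those of their MIR19B1 and MIR92A1 partner arms. An unmeasured part of those guide counts may come from chromosome X, so the arm shares of these hairpins are uncertain. miR-20a-5p made up 98.8% and 99.5% of the MIR20A arms in detached libraries, against 97.7%, 97.0% and 98.8% in attached libraries 1, 2 and 3. The remaining arms of the 6 hairpins, miR-19a-5p and miR-20a-3p, lie outside the list of 10. miR-19a-5p had 301 and 396 counts in detached replicates 1 and 2, against 715, 0 and 187 counts in attached replicates 1, 2 and 3. miR-20a-3p had 1482 and 735 counts in detached replicates 1 and 2, against 988, 54 and 1089 counts in attached replicates 1, 2 and 3. For both, attached replicate 2 was the lowest library, and their edgeR log2 fold changes were -0.08 (SE 1.57) and 0.27 (SE 0.96), and -0.67 and -0.25 without that library.

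The GC content was 54.5% in miR-92a-3p, 56.5% in miR-18a-3p and 52.2% in miR-92a-1-5p, the arms for which that library held 1.62, 1.04 and 1.28 times the mean of attached replicates 1 and 3. It was 39.1% in miR-20a-5p and 43.5% in miR-18a-5p, for which the library held 0.0332 and 0.0148 times that mean. GC content was likewise low in miR-19a-3p (34.8%) and miR-19b-3p (39.1%), where the ratios were 0.238 and 0.562. The order was not strict: miR-17-3p (50.0%), miR-17-5p (47.8%) and miR-19b-1-5p (47.8%) had more GC than miR-19b-3p but lower ratios, of 0.180, 0.330 and 0.319. Across the 10 arms Spearman's rho between GC content and this ratio was 0.628, a description over arms that share the same libraries, and the part of base composition in the result was not tested.

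So that a split of reads between the names of a seed family would not matter, the counts of each family were summed before fitting. A sum cannot recover reads that the counting may have dropped for matching more than 1 name. The miR-17 family (miR-17-5p, miR-20a-5p, miR-20b-5p, miR-106a-5p, miR-106b-5p and miR-93-5p) summed to 10945 and 23765 CPM in detached replicates 1 and 2, against 8264, 4017 and 14753 CPM in attached replicates 1, 2 and 3. Its log2 fold change was 0.73 (SE 0.57, edgeR adjusted p 0.775), with overlapping groups. The miR-92 family (miR-92a-3p, miR-92b-3p, miR-25-3p, miR-32-5p, miR-363-3p and miR-367-3p) summed to 6188 and 8976 CPM in detached replicates, against 8646, 15294 and 8523 CPM in attached replicates 1, 2 and 3. Its log2 fold change was -0.90 (SE 0.61, edgeR adjusted p 0.758). Without attached replicate 2, edgeR gave 0.46 for the miR-17 family (SE 0.45, adjusted p 0.765) and -0.32 for the miR-92 family (SE 0.42, adjusted p 0.815). The miR-18 and miR-19 families gave 0.10 (SE 1.18) and 0.27 (SE 0.52), with edgeR adjusted p of 0.995 and 0.905. miR-17-5p, with its log2 fold change of 2.63, made up 0.0764% and 0.0587% of the family's counts in detached libraries, against 0.00896%, 0.0170% and 0.0230% in attached libraries 1, 2 and 3.

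The paralog clusters carry the same seeds on other chromosomes. The miR-106a-363 cluster on chromosome X has 10 arms with names of their own, apart from miR-19b-3p and miR-92a-3p, which both loci encode. Of these 10, 6 had 0 counts in every library, 2 passed the filter and 0 were called. The most abundant of these names, miR-20b-5p, measured 3.04 and 7.31 CPM in detached replicates 1 and 2, against 0.987, 0.114 and 4.75 CPM in attached replicates 1, 2 and 3. miR-18b-5p had 27 and 35 counts in detached replicates 1 and 2, against 26, 0 and 33 counts in attached replicates 1, 2 and 3, and miR-106a-3p had at most 7 counts in a library. By these names the X-linked paralogs were scarce beside miR-20a-5p and miR-18a-5p. How reads that match more than 1 name were counted is unknown, and the X-linked part of miR-19b-3p and miR-92a-3p was not measured.

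The 6 arms of the miR-106b-25 cluster, from an intron of the replication helicase gene MCM7 on chromosome 7, all passed the filter, with 1 positive and 5 negative log2 fold changes, beside 340 positive and 357 negative over all 697. Of the 6 arms 0 were called by edgeR (0% of all tested miRNAs in either direction) or DESeq2 (1.58% higher and 0.143% lower). miR-106b-5p measured 1630 and 5130 CPM in detached replicates 1 and 2, against 748, 81.9 and 2624 CPM in attached replicates 1, 2 and 3. Its order across libraries was that of miR-20a-5p, whose counts were 4.65 and 2.88 times as many in detached libraries, against 4.59, 2.43 and 3.27 times in attached libraries 1, 2 and 3. The arms miR-93-5p and miR-25-3p went otherwise. miR-93-5p measured 1724 and 3841 CPM in detached replicates 1 and 2, against 4085, 3735 and 3532 CPM in attached replicates 1, 2 and 3. miR-25-3p, with the miR-92 seed, measured 329 and 389 CPM in detached replicates 1 and 2, against 223, 4743 and 849 CPM in attached replicates 1, 2 and 3. Its log2 fold change was -2.92 (SE 1.32, edgeR adjusted p 0.654), and -0.61 (SE 0.56) without attached replicate 2. As in MIR17HG, the arm with the miR-92 seed was thus highest, and an arm with the miR-17 seed lowest, in attached replicate 2. Of the 6 arms that library was highest in 2 and lowest in 2, against 22.2% and 51.1% of all tested miRNAs. The further highest arm was miR-106b-3p, partner of miR-106b-5p, at 343 CPM against 200 to 299 CPM in the others. The further lowest arm was miR-93-3p, at 65.3 CPM against 79.7 to 127 CPM. Nor was that library highest for every miRNA with the miR-92 seed. miR-92b-3p was highest in that library (1304 CPM), but miR-32-5p was lowest, at 391 CPM against 1075 to 2021 CPM in the others. Of 5 further seed relatives 2 passed the filter, miR-92b-3p and miR-32-5p, with log2 fold changes of -0.96 (SE 0.65) and 0.23 (SE 0.71), or -0.67 and -0.13 without attached replicate 2, and 0 were called; miR-367-3p had 1 count in all.

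**Figure D4:**
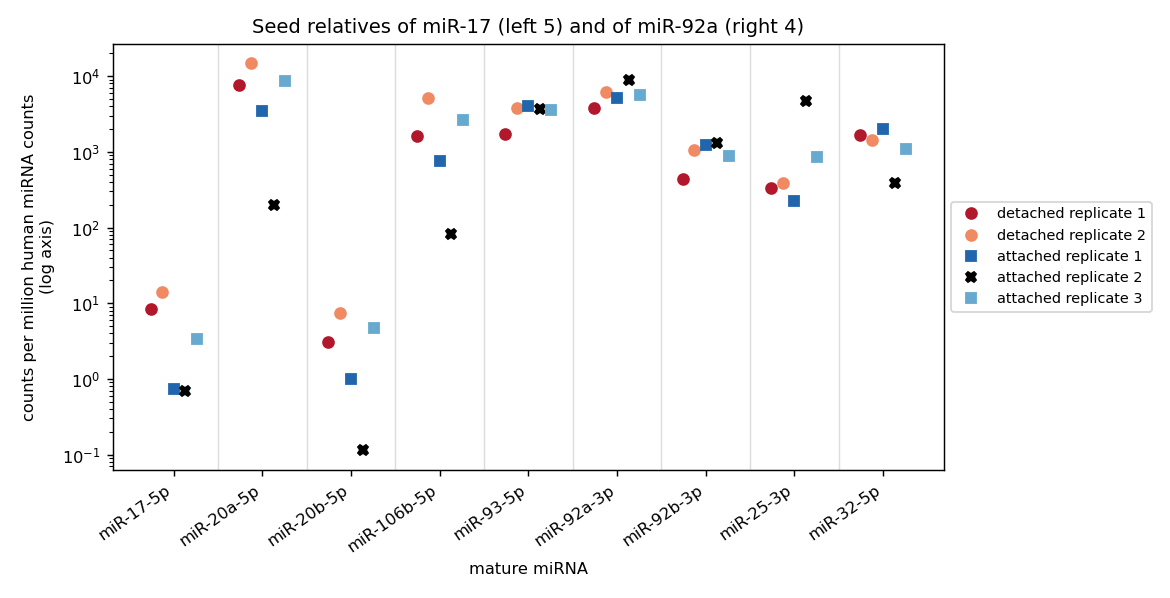
Levels of 5 miRNAs with the miR-17 seed and 4 with the miR-92 seed in each library, in CPM on a log axis. miR-20a-5p, miR-20b-5p and miR-106b-5p share the order of the libraries with attached replicate 2 lowest, while miR-93-5p (3735 CPM in that library) and miR-25-3p (4743 CPM) do not. miR-32-5p, with the miR-92 seed, is also lowest in that library (391 CPM). miR-106a-5p, with 2 counts in all, is not drawn.

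MYC, which activates MIR17HG, is also reported to repress a group of miRNAs. Of 18 such miRNAs 17 passed the filter, with 10 positive and 7 negative log2 fold changes, and a median of 0.14 (0.05 without attached replicate 2), beside 340 positive, 357 negative and a median of -0.04 over all 697. Of these 17, 0 were called by edgeR (0% of all tested miRNAs) or DESeq2 (1.58% higher and 0.143% lower). The most abundant of them, let-7a-5p, which represses growth-promoting mRNAs, had a log2 fold change of -0.31 (SE 0.59), which turned to 0.22 without attached replicate 2. miR-29b-3p and miR-29a-3p, repressors of collagen mRNAs, gave 0.33 (SE 0.58) and -1.28 (SE 0.73), and 0.07 and -0.38 without that library.

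The miRNAs outside all these lists whose levels varied most like the summed cluster were miR-500a-5p, miR-324-3p and miR-362-5p. They were chosen among 140 miRNAs with a mean of at least 100 CPM by the root mean square distance of log2 levels, centred over the 5 libraries, which was 0.133, 0.151 and 0.179. miR-500a-5p measured 134 and 139 CPM in detached replicates 1 and 2, against 90.6, 54.3 and 105.8 CPM in attached replicates 1, 2 and 3. Nearest to miR-92a-3p by the same measure were miR-2355-3p (0.126), miR-532-5p (0.134) and miR-3615 (0.161), each of them highest in attached replicate 2. With 5 libraries such likeness is a description and carries no test.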

How the data were processed

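The data are 5 small RNA libraries of MCF10A cells (2 detached, 3 attached). Per the labels, RNAs of 18 to 24 nt were selected from 50 µg of total RNA. The authors deposited raw counts per named small RNA, 49965 names per library, with 5 summary rows that total 0. The submitters' processing notes name hg38 and DESeq2; the sources used here name no aligner or counter. The authors' deposited comparison table gives log2 fold changes and p-values per name; its 5 columns of values per library were not used.

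The 2565 human miRNA rows entered a two-sided quasi-likelihood F test with TMM factors (edgeR 4.0.16, R 4.3.3), and 697 of them passed filterByExpr (min.count 10, min.total.count 15). SE is the absolute log2 fold change over the square root of F. CPM use human miRNA totals without TMM factors. Alternatives were DESeq2 1.42.0, voom in limma 3.58.1, other scalings and filters, all named rows, summed seed families, a replicate block and leaving out each library. The edgeR step was tested on simulated data. No 2 replicates looked like 1 library deposited again, since chi-square over its degrees of freedom was 729 to 4220 between them. The members and lists were chosen with earlier results of these data known. Named miRNAs are the 10 members, the other arms of their hairpins and the 3 most abundant of each other list. Also named are the 3 nearest in pattern to the summed cluster and to miR-92a-3p. For their sequence, miR-106a-5p, miR-19b-2-5p and miR-92a-2-5p were named. The arms miR-106b-3p and miR-93-3p were named to complete the miR-106b-25 arms that were highest or lowest in attached replicate 2.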

Additional observations from a re-analysis of the deposited data

How the results depend on the processing

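When the 10 arms and 4 families were recomputed under the alternatives, 133 of 141 arm values and 51 of 56 family values kept their sign and stayed on the same side of the threshold. miR-17-5p was called only without attached replicate 2 (1 arm called, edgeR adjusted p 0.0486) and by DESeq2 without that library (1 arm, added after seeing the data); its log2 fold change ran from 2.29 to 3.49 on leaving out a library, and the stricter filter (100 CPM in 2 libraries) removed it. miR-18a-5p changed sign with all named rows (-0.025), and with DESeq2 without attached replicate 2 (-0.43), and ran from -0.48 to 0.92 on leaving out a library; its family gave -0.040, -0.43 and -0.48 to 0.92. miR-19a-3p ran from -0.018 to 0.79, miR-19b-3p from -0.28 to 0.71 and the miR-19 family from -0.16 to 0.70. The cause was not tested. Human miRNAs called higher and lower numbered 11 and 1 with DESeq2, 14 and 5 without the low-count filter, 26 and 3 with DESeq2 without attached replicate 2, and 0 to 22 and 0 to 1 on leaving out a library. The summed level's difference ran from 0.24 to 0.83. Library totals in place of TMM moved the median of all log2 fold changes by 0.24, and no arm changed sign there or with DESeq2 size factors. The labels do not pair libraries by replicate number. Deviations of same-numbered libraries correlated at -0.20 and -0.18. With 2 detached libraries the deviations mirror each other, so these values cannot decide whether libraries were paired. With a replicate block 0 arms were called, with miR-17-5p at 3.50 (SE 1.23, edgeR adjusted p 0.617) and miR-20a-5p at 3.27 (SE 1.29). With that block miR-18a-5p stood at 2.49 (SE 1.66) and its family at 2.48. By voom they stood at 1.30 (SE 1.53) and 1.28. Without a detached replicate, the other one is assumed to vary like the attached libraries. miR-17-5p rests on 6 to 35 counts in attached libraries.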
